A study of Mus musculus with 13 samples.

Results

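The 54 genes described here encode proteins of mitosis and of the mitotic spindle, and their RNA was measured in helper T cells of mice treated for myeloma. They were taken by gene name from a list of 54 symbols, chosen with earlier results of these data known. All 54 were found among the 56748 genes of the count table. By role, 9 drive entry into mitosis, 3 are grouped under mitotic exit, 4 belong to the chromosomal passenger complex and 4 to the spindle checkpoint. A further 7 are kinetochore or centromere genes, 6 are kinesin motors, 8 build or focus the spindle, 5 act in cytokinesis and 8 act on chromosomes.

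The series followed CD4+ T helper cells in the spleens of mice carrying Vk12653, a transplantable mouse myeloma, which is a tumour of plasma cells. It asked what Eomes, a T-box factor active in killer and memory lymphocytes, does in helper cells during treatment with an antibody that activates 4-1BB, a costimulatory receptor of T cells. Every mouse carried a Thy1.1 reporter of Foxp3, the factor of regulatory T cells, and received 50 µg of NK1.1-depleting antibody on days −2 and 5 and tumour cells on day 0. The treatment, 20 µg of 4-1BB agonist antibody or of control IgG, was given on days 10, 13 and 16, and spleens were taken on day 18.

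Total RNA of sorted TCR+ CD4+ Thy1.1-negative cells was sequenced after removal of ribosomal RNA in 13 libraries of 5 groups. Eomes-TKO mice treated with 4-1BB antibody gave 2 libraries (Eomes-TKO 4-1BB), with no GFP sort. Treated Eomes-GFP mice, whose GFP reports Eomes, gave 3 libraries of GFP-positive cells (GFP+) and 3 of GFP-negative cells (GFP−). Eomes-TKO mice given control IgG gave 3 libraries (Eomes-TKO IgG), and Eomes-GFP mice under control IgG a further 2 from undivided cells (Eomes-GFP IgG). How the Eomes-TKO genotype was made is not described in the labels. The labels do not say that replicates were separate animals, so a p-value here reflects library-to-library spread, which may be technical. GFP+ and GFP− libraries of the same number share a prefix in their names. That prefix was read as the animal, and the main test did not pair these libraries. Under this reading the libraries within a group came from different animals and their spread would be between animals, but the labels do not state it.

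Cells enter mitosis when cyclin B and Cdk1, helped by the Plk1 and Aurora kinases, drive chromosome condensation and spindle assembly. Kinetochores then attach chromosomes to microtubules, the spindle checkpoint holds the cell until every chromosome is attached, and the anaphase-promoting complex destroys cyclin B so that the chromosomes separate and the cell divides. Most genes of these steps are transcribed late in the cell cycle, through promoter elements known as the cell cycle genes homology region (CHR) and the CCAAT box, and their RNA is low in resting T cells.

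The promoter stretches of 7 of the genes are shown because 6 of them were the ones that passed the test in Eomes-TKO cells after 4-1BB antibody, while Cenpa was among the few whose levels overlapped between GFP+ and GFP− cells. Each runs from 150 bases before the RefSeq start to 30 bases after it on the gene's own strand, in the GRCm38.p6 build. Capitals mark the CHR, spelled TTTGAA with TTCGAA as a variant, and the CCAAT box on either strand, so that a CCAAT box on the opposite strand reads ATTGG and a CHR there can read TTCAAA. The stretches are chr2:119618148-119618327 (+) for Nusap1, chr11:40733408-40733587 (−) for Hmmr, chr11:78301441-78301620 (+) for Spag5 and chr1:139454623-139454802 (+) for Aspm. Those of Ckap2, Cdca8 and Cenpa are chr8:22185790-22185969 (−), chr4:124936888-124937067 (−) and chr5:30666736-30666915 (+).
Nusap1: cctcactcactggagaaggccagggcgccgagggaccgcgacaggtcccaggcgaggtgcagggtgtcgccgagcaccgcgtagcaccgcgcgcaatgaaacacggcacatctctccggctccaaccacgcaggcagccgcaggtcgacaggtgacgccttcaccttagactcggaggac
Hmmr: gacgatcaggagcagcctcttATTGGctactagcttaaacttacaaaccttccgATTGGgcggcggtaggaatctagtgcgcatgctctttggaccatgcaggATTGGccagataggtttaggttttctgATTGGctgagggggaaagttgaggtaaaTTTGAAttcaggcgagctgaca
Spag5: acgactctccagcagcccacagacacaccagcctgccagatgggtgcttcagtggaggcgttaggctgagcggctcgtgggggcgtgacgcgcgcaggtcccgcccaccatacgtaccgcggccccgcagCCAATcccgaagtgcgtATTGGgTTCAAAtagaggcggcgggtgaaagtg
Aspm: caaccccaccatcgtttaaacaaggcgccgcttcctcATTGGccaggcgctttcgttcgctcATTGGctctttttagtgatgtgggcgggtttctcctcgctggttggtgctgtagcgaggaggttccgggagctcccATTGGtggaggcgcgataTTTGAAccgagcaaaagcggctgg
Ckap2: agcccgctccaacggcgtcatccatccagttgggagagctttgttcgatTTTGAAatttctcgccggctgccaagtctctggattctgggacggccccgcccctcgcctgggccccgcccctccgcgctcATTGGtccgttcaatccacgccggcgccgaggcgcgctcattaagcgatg
Cdca8: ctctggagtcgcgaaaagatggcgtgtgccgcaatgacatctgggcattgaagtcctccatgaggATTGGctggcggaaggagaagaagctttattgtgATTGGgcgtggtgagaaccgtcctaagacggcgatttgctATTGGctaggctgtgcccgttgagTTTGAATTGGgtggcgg
Cenpa: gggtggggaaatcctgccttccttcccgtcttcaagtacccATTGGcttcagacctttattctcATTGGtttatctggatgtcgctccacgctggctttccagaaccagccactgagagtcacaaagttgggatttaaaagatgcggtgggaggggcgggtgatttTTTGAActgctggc

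The CHR stood just after the start in Spag5, Aspm, Hmmr, Cdca8 and Cenpa, at positions 4, 7, 9, 14 and 17 counted from 1 at the start. In Ckap2 it stood at −101, where −1 is the base before the start, and the Nusap1 stretch held neither motif. Hmmr and Cdca8 each held 4 CCAAT boxes in the stretch shown. The last box of Cdca8 shares 1 base with its CHR. Cenpa thus held the same letters as genes that differed far more between the groups.

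Promoters of 300 bases, 250 before and 50 after the start, were listed for 45 of the 54 genes, 48 promoters in all. A CHR was present in 83.3% of these 48 promoters, against 19.2% of all 32851 promoters of the same length. A CCAAT box was present in 75% of them against 37.4% of all promoters, and both motifs together in 68.8% against 7.52%. At least 2 CCAAT boxes were found in 50% against 11.7%. A CHR lying between 50 bases before and 30 after the start was found in 56.2% against 4.33%. The E2F core (spelled TTTGGCG, with TTTCCCG as a variant, TTTGCCG as another variant and TTTCGCG as the last one, either strand), the element of replication genes, was found in 20.8% against 6.7%. Among 37 promoters of S phase genes the order was the other way round, with an E2F core in 48.6% and a CHR in 16.2%. These are matches of letters in a fixed window, and they say nothing of whether a factor was bound in these cells.

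**Figure D1:**
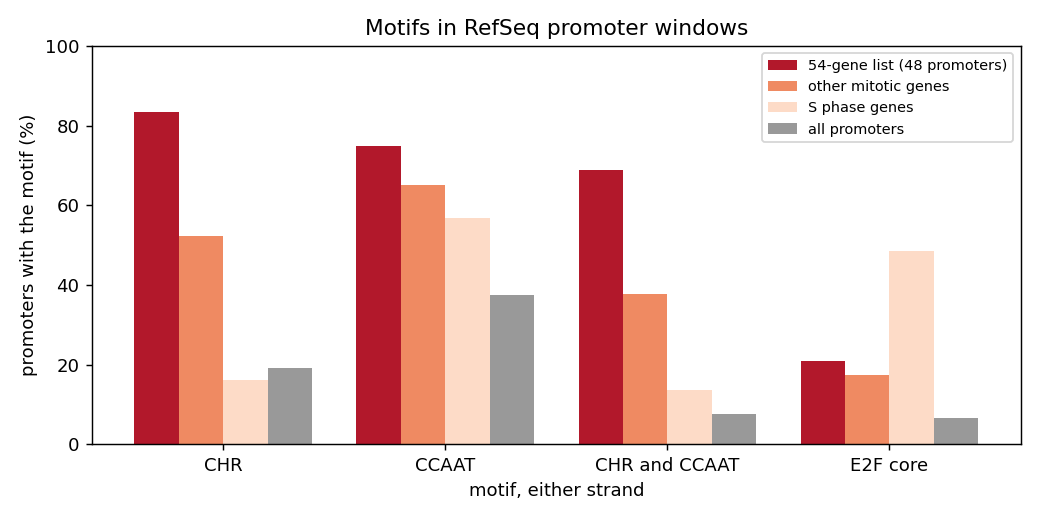
Share of promoter windows of 300 bases (vertical axis, percent) holding a CHR, a CCAAT box, both, or an E2F core on either strand, for the 54-gene list, other mitotic genes, S phase genes and all promoters. The CHR was in 83.3% of the list's 48 promoters and in 19.2% of all 32851, whereas the E2F core was most frequent among S phase genes at 48.6%.

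Mitotic RNA was highest in GFP+ cells, intermediate in GFP− cells and in treated Eomes-TKO cells, and lowest in both control groups. The level used below is CPM, the count scaled to library size by TMM, and the summary is the mean log2 CPM over the 54 genes. That mean was 2.76 and 3.74 in the Eomes-TKO 4-1BB libraries. It was 5.42, 5.58 and 5.07 in the GFP+ libraries and 3.86, 3.90 and 3.71 in the GFP− libraries. Under control IgG it was 1.79, 2.15 and 1.81 in Eomes-TKO cells and 1.97 and 2.45 in Eomes-GFP cells. By this mean all 3 GFP+ libraries lay above every other library, and the treated groups did not overlap the control groups. The 2 Eomes-TKO 4-1BB libraries differed from each other by more than any other replicates. The second lay within the range of the GFP− libraries and the first below it. In bulk samples a smaller share of dividing cells and less of this RNA in each cell cannot be told apart.

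**Figure D2:**
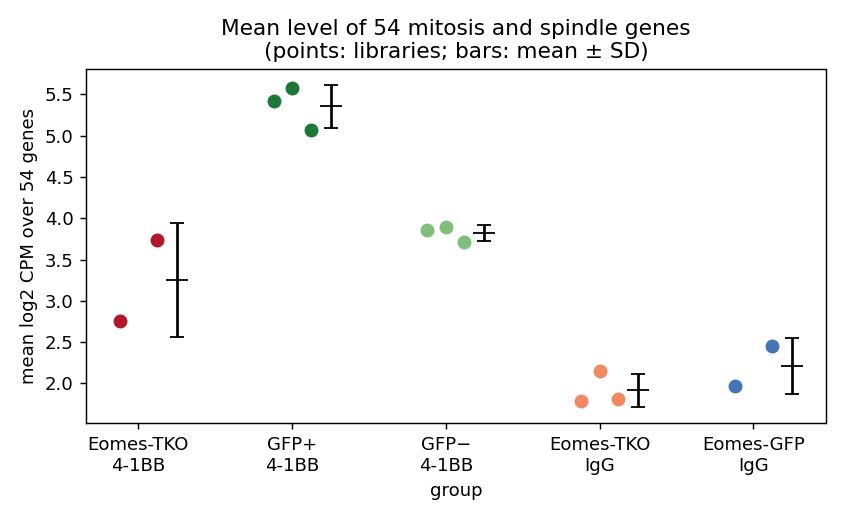
Mean log2 CPM over the 54 genes (vertical axis) in each library (points) of the 5 groups, with the group mean ± SD (bars). GFP+ libraries lay between 5.07 and 5.58 and IgG libraries between 1.79 and 2.45, and the 2 Eomes-TKO 4-1BB libraries stood at 2.76 and 3.74.

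As a share of all counts, the 54 genes took 0.101% and 0.157% in Eomes-TKO 4-1BB libraries, 0.295% to 0.371% in GFP+ libraries and 0.142% to 0.167% in GFP− libraries. Under IgG they took 0.0673% to 0.0815% in Eomes-TKO cells and 0.0758% and 0.101% in Eomes-GFP cells. The second Eomes-GFP IgG library thus reached the first Eomes-TKO 4-1BB library. In summed CPM of the 54 genes it exceeded that library, at 1014 against 957 CPM. Single genes kept the order of the summary. Group means ran GFP+, GFP−, Eomes-TKO 4-1BB, Eomes-GFP IgG, Eomes-TKO IgG from high to low for 41 genes, and with the last pair exchanged for 12 more. The remaining gene was Smc4. Within groups the libraries also moved together: the second Eomes-TKO 4-1BB library exceeded the first for 53 of 54 genes, all but Cenpa, and the second Eomes-GFP IgG library exceeded the first for 46. The first Eomes-TKO 4-1BB library had the lowest total of all.

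**Figure D3:**
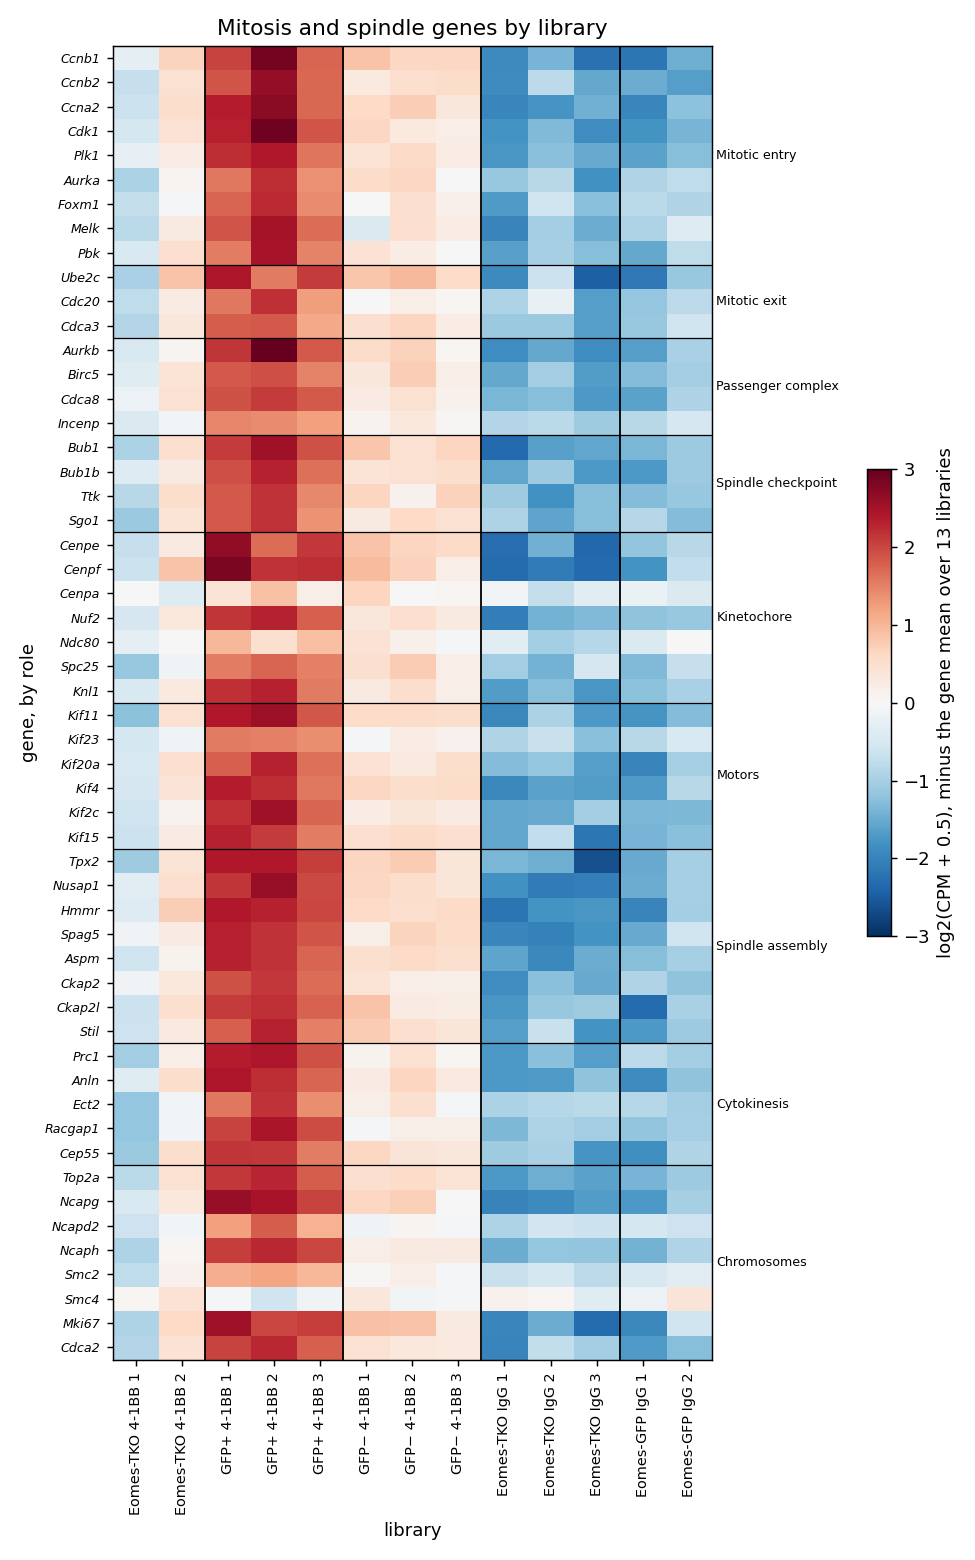
Levels of the 54 genes (rows, by role) in the 13 libraries (columns), as log2(CPM + 0.5) minus the mean of the gene over the libraries; red is above and blue below that mean. GFP+ columns are red and IgG columns blue for nearly every row, and the Smc4 and Cenpa rows stay pale.

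The libraries held 6080975 to 10881146 estimated counts each, and all 54 genes passed the filter on low counts among the 14059 genes tested. Eomes stood at 3.59 and 8.03 CPM in Eomes-TKO 4-1BB libraries, at 570 to 706 in GFP+, 1.83 to 3.54 in GFP−, 1.36 to 3.19 in Eomes-TKO IgG and 14 to 16.8 CPM in Eomes-GFP IgG libraries. The T cell markers Cd3e, Cd3d, Cd3g, Cd4, Trac, Cd28, Cd5 and Lck summed to at least 3565 CPM in each library. They were higher in GFP+ libraries, at 5725 to 6540 CPM against 4076 to 4161 CPM in GFP−. Myeloid markers were low, and their sums, like the mitotic mean, were highest in GFP+ libraries and lowest under IgG. They summed to 17.5 and 18.7 CPM in Eomes-TKO 4-1BB libraries and 49.2, 62.7 and 84.1 CPM in GFP+ libraries. In GFP− libraries the sums were 17.4, 34.7 and 35.5 CPM. Under IgG they were 10.1 to 13.8 CPM in Eomes-TKO and 9.3 to 9.41 CPM in Eomes-GFP libraries. Within GFP+ and within GFP− cells the third library had the highest myeloid sum and the lowest mitotic mean. The second Eomes-TKO 4-1BB library was higher than the first in both. Of the 7 tested myeloid markers 2 were called higher in GFP+ than in GFP− cells. In treated over control Eomes-TKO cells 0 were called higher, and in GFP− over Eomes-GFP IgG cells 1. In GFP+ over Eomes-GFP IgG cells 5 of the 7 were called higher, and in Eomes-TKO 4-1BB over GFP+ cells 2 were called lower. The markers S100a8, S100a9 and Elane were at 0 in both IgG groups. Plasma cell and myeloma markers summed to 65 and 74.5 CPM in Eomes-TKO 4-1BB, 130 to 149 in GFP+, 58.5 to 67.3 in GFP−, 49.9 to 58.8 in Eomes-TKO IgG and 50.4 to 51.1 CPM in Eomes-GFP IgG libraries. The excess in GFP+ cells was Igkc, an immunoglobulin light chain, at 76.1, 82 and 79.6 CPM against 0.488, 0.487 and 0.0903 CPM in GFP− libraries, with Tnfrsf17 at 0 counts throughout and Mzb1 at 0 in GFP+ cells. Igkc had 7.34 and 15.6 CPM in Eomes-TKO 4-1BB libraries against 1.67, 0.0986 and 0 CPM in Eomes-TKO IgG libraries (adjusted p = 0.0707). Jchain, which joins immunoglobulin chains, had 4.68 and 3.23 CPM there against 0 CPM in all 3 Eomes-TKO IgG libraries (adjusted p = 0.0707). Regulatory T cell markers summed to 67 and 111 CPM in Eomes-TKO 4-1BB, 544 to 626 in GFP+ and 64 to 102 CPM in GFP− libraries. Under IgG they summed to 66.4 to 87.3 CPM in Eomes-TKO and 83.1 to 94.5 CPM in Eomes-GFP libraries. Their excess in GFP+ cells was Ikzf2, called higher with a mean of 569 CPM against 68.7 CPM in GFP− cells. Foxp3 (0.495 against 1.44 CPM) and Il2ra (3.38 against 11.6 CPM) were called lower. The gamma-delta T cell marker Trdc reached at most 23.4 CPM, in a GFP+ library. The highest sum in a library was 15 CPM for erythroid markers and 12.3 CPM for CD8 T cell markers, both in GFP− cells, and 13.3 CPM for NK markers, in Eomes-TKO IgG cells. B cell markers summed to at most 5.21 CPM and stem and progenitor markers to at most 1.46 CPM. The median log2 fold change of the 4 tested erythroid markers was 1.5 in GFP+ over Eomes-GFP IgG cells, with 1 called higher and 1 lower. It was 1.76 in GFP− over Eomes-GFP IgG cells, with 0 called by edgeR and 1 at an unadjusted p under 0.05. The part of these markers in the mitotic differences was not tested.

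Within treated Eomes-GFP mice, the typical mitotic gene was about 3 times as high in GFP+ as in GFP− cells, with genes called in every role. Summed over the 54 genes, the level was 3051 to 3890 CPM in GFP+ libraries and 1392 to 1688 CPM in GFP− libraries. Of the 54 genes 51 were called higher and 0 lower at an adjusted p under 0.05, against 20.7% of all genes tested called higher and 16.5% called lower. The median log2 fold change was 1.63, against 0.02 for all genes, and the middle range was narrow, from 1.45 to 1.78. For 52 genes all 3 GFP+ libraries lay above all 3 GFP− libraries, against 27.6% of all genes. Called higher were all 9 entry genes, 2 of 3 exit genes, all 4 passenger and all 4 checkpoint genes. So were 6 of 7 kinetochore genes, all 6 motors, all 8 spindle genes, all 5 cytokinesis genes and 7 of 8 chromosome genes. The third GFP+ library was the lowest of its group for 48 genes. The test did not pair the GFP+ and GFP− libraries that share a name prefix. Fitted alone with that prefix as a block, they gave 52 genes called higher and 1 lower.

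Mki67, which coats mitotic chromosomes and is the antigen of the Ki-67 antibody, had 727, 501 and 522 CPM in GFP+ libraries against 230, 226 and 151 CPM in GFP− libraries. Its fold change was 1.53 ± 0.45 on the log2 scale (SE; adjusted p = 0.0248). Top2a, the topoisomerase that untangles sister chromosomes, had 325, 365 and 265 CPM in GFP+ libraries against 104, 110 and 100 CPM in GFP− libraries. The GFP− libraries agreed closely for Top2a, no GFP+ library came near them, and the log2 fold change was 1.60 ± 0.24 (adjusted p = 0.000331).

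Among the genes of mitotic entry, Cdk1, the kinase that starts mitosis, differed most. It had 28, 42.8 and 20.6 CPM in GFP+ libraries against 8.29, 6.46 and 6.05 CPM in GFP− libraries. The groups were far apart, with a log2 fold change of 2.14 ± 0.30 (adjusted p = 7.25e-05). Aurka, the kinase of centrosome maturation, differed least, with 15.9, 24.9 and 13.8 CPM in GFP+ against 7.56, 7.92 and 4.97 CPM in GFP− libraries. Even so all GFP+ libraries were higher (1.42 ± 0.33, adjusted p = 0.00349). The cyclins Ccnb1, Ccnb2 and Ccna2, the kinases Plk1, Melk and Pbk and the transcription factor Foxm1, which acts on many of these promoters, lay between, with log2 fold changes of 1.63 to 2.06.

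At mitotic exit, Cdc20, the activator of the anaphase-promoting complex, had 25.5, 39.4 and 20.2 CPM in GFP+ libraries against 8.17, 9.5 and 8.67 CPM in GFP− libraries (log2 fold change 1.69 ± 0.35, adjusted p = 0.00173). Cdca3, grouped here although it is a trigger of entry through the Wee1 kinase, had 29, 29.5 and 17.8 CPM against 11.1, 12.5 and 9.3 CPM (1.21 ± 0.29, adjusted p = 0.00493). Ube2c, the ubiquitin-conjugating enzyme of the same complex, had 41, 22.3 and 32.8 CPM in GFP+ libraries against 13.4, 14.7 and 10.8 CPM in GFP− libraries. Its groups did not overlap either, but its spread was wide and it missed the threshold (1.30 ± 0.48, adjusted p = 0.053). With the GFP+ and GFP− libraries fitted alone and the animal as a block it passed (1.23, adjusted p = 0.002). Fitting them alone without the block also gave 52 genes called higher, so the pass cannot be credited to the block alone.

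The passenger complex corrects faulty attachments of chromosomes. Its kinase Aurkb had 22.3, 40.7 and 18.1 CPM in GFP+ libraries against 7.07, 7.92 and 4.88 CPM in GFP− libraries (log2 fold change 2.03 ± 0.32, adjusted p = 0.000161). Its scaffold Incenp had 101, 98.1 and 86 CPM against 39.3, 45.4 and 36.8 CPM (1.23 ± 0.14, adjusted p = 7.57e-06). The scaffold differed less than the kinase but more evenly between libraries.

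In the spindle checkpoint, Bub1, a kinase of unattached kinetochores, had 19.1, 26.2 and 16.9 CPM in GFP+ libraries against 7.68, 5.85 and 6.68 CPM in GFP− libraries (1.62 ± 0.33, adjusted p = 0.00132). Ttk, the kinase that starts checkpoint signalling, had 9.56, 12.2 and 7.09 CPM against 3.9, 2.56 and 4.06 CPM (1.44 ± 0.38, adjusted p = 0.00865). The 4 checkpoint genes thus lay close together, with Bub1b and the cohesin protector Sgo1 between these 2.

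Kinetochore genes were uneven, with log2 fold changes of 0.27 to 1.82. Cenpf, a large outer kinetochore protein, had 82.6, 52.9 and 54.5 CPM in GFP+ libraries against 22.4, 18.6 and 13 CPM in GFP− libraries (1.82 ± 0.35, adjusted p = 0.00166). Ndc80, which binds microtubules directly, had 26.2, 18.2 and 24.7 CPM against 17.7, 14.5 and 12.5 CPM. Its difference was small but past the threshold (0.63 ± 0.23, adjusted p = 0.0396), whereas its partners Nuf2 and Spc25 in the same complex differed by 1.79 ± 0.26 and 1.20 ± 0.35. Whether Ndc80 differed from its partners was not tested. Ndc80 is named here because of its value.

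All 6 kinesin motors were higher in GFP+ cells. Kif2c, which takes microtubules apart at centromeres, had 19.1, 24.5 and 13.8 CPM in GFP+ libraries against 4.51, 5 and 4.52 CPM in GFP− libraries (2.03 ± 0.27, adjusted p = 4.48e-05). Kif23, a motor of the central spindle, had 41, 40.1 and 36.7 CPM against 13.2, 16.1 and 15 CPM (1.41 ± 0.18, adjusted p = 2.5e-05). Between them lay Kif11, which pushes spindle poles apart, Kif15, Kif20a and the chromosome-arm motor Kif4.

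The 8 spindle genes showed the narrowest range of any role with more than 4 genes, from 1.41 to 1.80. Nusap1, which bundles microtubules near chromosomes, had 48, 66.5 and 42.8 CPM in GFP+ libraries against 16.3, 15.2 and 13.7 CPM in GFP− libraries (1.80 ± 0.22, adjusted p = 1.79e-05). Stil, a centriole duplication factor, had 19.8, 28.7 and 16.3 CPM against 9.51, 7.8 and 7.05 CPM (1.41 ± 0.33, adjusted p = 0.00391). Cytokinesis genes ranged from 1.56 to 2.07. Racgap1, the partner of Kif23 in the central spindle, had 124, 167 and 118 CPM in GFP+ libraries against 29, 34.4 and 34.2 CPM in GFP− libraries (2.07 ± 0.22, adjusted p = 8.55e-06). Ect2, which activates the RhoA switch at the cleavage site, had 34.8, 52.5 and 30.6 CPM against 12.9, 16.1 and 10.9 CPM (1.56 ± 0.26, adjusted p = 0.000269).

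Genes of condensin, the complex that compacts mitotic chromosomes, had uneven fold changes. Whether they differed from each other was not tested, and the list holds no subunit particular to condensin II. Ncapg, a condensin I subunit, had 45.5, 41 and 30.2 CPM in GFP+ libraries against 11, 11.7 and 6.95 CPM in GFP− libraries (log2 fold change 1.98 ± 0.26, adjusted p = 3.71e-05). The condensin I subunits Ncaph and Ncapd2 were also higher, by 1.90 ± 0.22 and 1.43 ± 0.19. Smc2, a core subunit shared by both condensins, was higher by 1.04 ± 0.17 (adjusted p = 0.000266). Its core partner Smc4 had 398, 268 and 376 CPM in GFP+ libraries against 511, 381 and 388 CPM in GFP− libraries. The groups overlapped, and the log2 fold change was −0.30 ± 0.20 (95% interval −0.73 to 0.14, adjusted p = 0.273). With the GFP+ and GFP− libraries fitted alone and the animal as a block Smc4 was called lower (−0.35, adjusted p = 0.0248). Fitted alone without the block, they gave no such call. Smc4 was also called lower without the filter on low counts (−0.32, adjusted p = 0.0389).

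Cenpa, the histone variant that marks centromeres, was the other gene with overlapping groups. It had 90.8, 125 and 78.5 CPM in GFP+ libraries against 107, 67.4 and 70.3 CPM in GFP− libraries. The log2 fold change was 0.27 ± 0.22 (95% interval −0.22 to 0.75, adjusted p = 0.384).

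**Figure D4:**
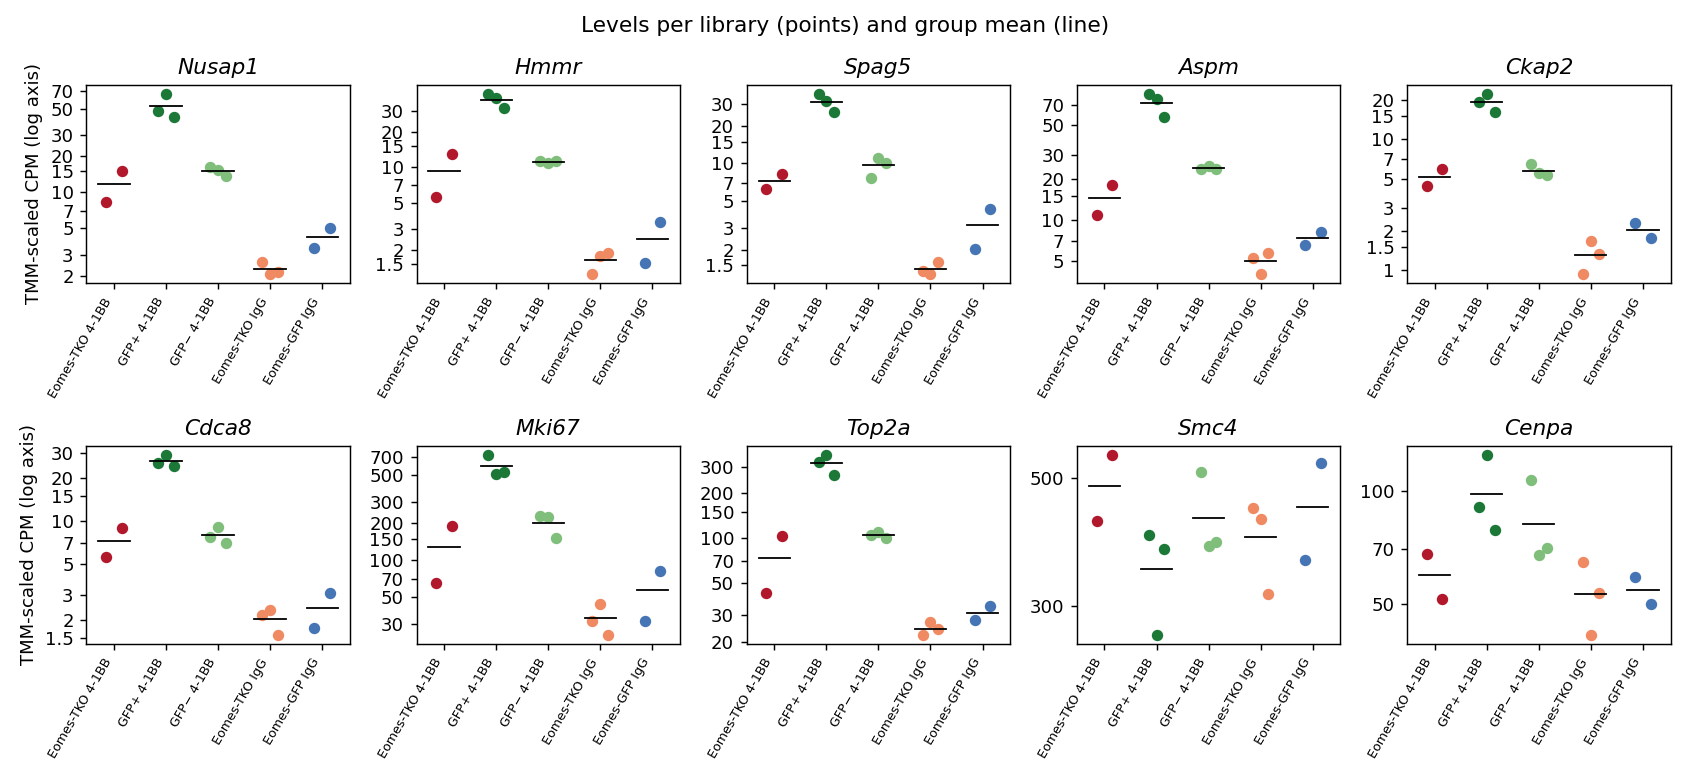
Levels of 10 genes (vertical axes, TMM-scaled CPM on a log axis) in each library (points) of the 5 groups, with the group mean (line): the 6 genes called in Eomes-TKO cells, Mki67, Top2a, Smc4 and Cenpa. For the first 8 genes every GFP+ library lies above all other libraries, while Smc4 and Cenpa overlap between GFP+ and GFP− cells.

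Under upper-quartile scaling the median of all genes between GFP+ and GFP− cells was −0.12, against 0.02 with TMM, and it changed the calls of all genes to 2186 higher and 3095 lower, against 2905 and 2315 with TMM. It left 50 of the 54 genes called higher and none lower.

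GFP− cells of treated mice, which are not marked by Eomes, also held more mitotic RNA than undivided cells of control Eomes-GFP mice. Of the 54 genes 28 were called higher and 0 lower, against 0.654% of all genes tested called higher and 0.107% called lower. These 28 made up 30.4% of the 92 genes called higher. The median log2 fold change was 1.81, against −0.01 for all genes, and 53 of 54 were positive. For 51 genes all GFP− libraries lay above both control libraries, against 14.3% of all genes, and 51 had an unadjusted p under 0.05, against 8.76%. By role, 5 of 9 entry, 3 of 4 passenger, 2 of 4 checkpoint, 3 of 7 kinetochore, 4 of 6 motor, 6 of 8 spindle, 1 of 5 cytokinesis, 4 of 8 chromosome and 0 of 3 exit genes were called. The control cells were not divided by GFP, so the sort and the treatment cannot be told apart here.

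The cyclin Ccnb1 had the largest difference, with 12.7, 10.8 and 10.7 CPM in GFP− libraries against 1.14 and 2.15 CPM in Eomes-GFP IgG libraries (log2 fold change 2.75 ± 0.45, adjusted p = 0.0204). Aspm, which focuses spindle poles, had the smallest adjusted p, with 23.8, 25.1 and 23.8 CPM against 6.61 and 8.22 CPM (1.70 ± 0.24, adjusted p = 0.00646). Ccnb1 and Aspm were chosen after their values were seen. Top2a had 104, 110 and 100 CPM against 28 and 34.8 CPM (1.73 ± 0.29, adjusted p = 0.0282). Mki67 had 230, 226 and 151 CPM in GFP− libraries against 32 and 81.9 CPM in Eomes-GFP IgG libraries. The second control library was well above the first for Mki67, and the gene missed the threshold (1.82 ± 0.53, adjusted p = 0.247). The count of 28 rested on each library: 3, 4 and 5 genes were called without GFP− replicates 1, 2 and 3, and 0 without either control library, while the median stayed between 1.56 and 2.11. DESeq2 called 44 and limma-voom 2.

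GFP+ cells, set against the same undivided control cells, were called higher for 53 genes and lower for 0, against 18.8% of all genes called higher and 15.4% called lower. The median log2 fold change was 3.44, against 0.00 for all genes. Cdk1 was higher by 4.40 ± 0.43 and Ccnb1 by 4.38 ± 0.46. Mki67 was higher by 3.35 ± 0.57 (adjusted p = 0.00165), and Top2a by 3.34 ± 0.31 (adjusted p = 7.78e-06). Cenpa passed here, at 0.85 ± 0.26 (adjusted p = 0.0214). Smc4 did not, at −0.36 ± 0.22 (adjusted p = 0.24). The control libraries are those used for GFP− cells, so the 2 comparisons are not independent. Under upper-quartile scaling the calls of all genes were 2130 higher and 2950 lower, against 2642 and 2167 with TMM, and the median of all genes moved to −0.14.

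In Eomes-TKO mice, cells after 4-1BB antibody also held more mitotic RNA than cells after control IgG, and few genes passed the test. Of the 54 genes 6 were called higher and 0 lower, against 0.0427% of all genes tested. These 6 were all of the genes called in this comparison, and 5 of them are spindle genes. The list was chosen with earlier results of these data known, so their place in it is not independent of these values. All 54 fold changes were positive, with a median of 1.57 on the log2 scale against 0.00 for all genes. An unadjusted p under 0.05 was reached by 48 of the 54, against 3.6% of all genes. For 39 both treated libraries lay above all 3 control libraries, against 7.04% of all genes.

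Nusap1 had 8.28 and 15 CPM in Eomes-TKO 4-1BB libraries against 2.61, 2.07 and 2.13 CPM in Eomes-TKO IgG libraries (log2 fold change 2.37 ± 0.29, adjusted p = 0.0134). Hmmr, a hyaluronan-binding protein that also holds microtubules at spindle poles, had 5.62 and 12.8 CPM against 1.25, 1.78 and 1.86 CPM (2.53 ± 0.36, adjusted p = 0.0233). Spag5, a partner of kinetochores and spindle poles, had 6.25 and 8.13 CPM against 1.36, 1.28 and 1.59 CPM (2.36 ± 0.32, adjusted p = 0.0226). In all 3 the control libraries lay close together and the lower treated library stood well above them. The other 3 had smaller fold changes. Aspm had 10.9 and 18.2 CPM against 5.32, 4.04 and 5.71 CPM (1.56 ± 0.24, adjusted p = 0.0388). Ckap2, a microtubule-stabilizing protein, had 4.37 and 5.94 CPM against 0.938, 1.68 and 1.33 CPM (1.97 ± 0.31, adjusted p = 0.0388). Cdca8, the borealin subunit of the passenger complex, had 5.62 and 8.97 CPM against 2.19, 2.37 and 1.59 CPM (1.83 ± 0.29, adjusted p = 0.044). None of the 6 overlapped between the groups. In the GENCODE M21 annotation of GRCm38, exons of Nusap1 overlap those of Oip5 and exons of Cdca8 those of 9930104L06Rik on the opposite strand. Outside these 6 genes, Ccna2, Plk1, Ube2c, Cdc20, Kif20a, Kif4, Ckap2l, Prc1 and Ncapg also overlap another gene on the opposite strand. Exons of Foxm1, Top2a and Ncapd2 overlap other genes on their own strand. The strand setting of the counting is not given in the sources used here, so reads over these overlaps cannot be told apart. As in the stretches printed above, 5 of the 6 hold a CHR and Nusap1 does not.

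The first treated library was the weaker for all 6. Without it 32 genes were called and the median was 1.97. Without the second, none was called and the median was 0.83, with 50 of the 54 fold changes positive. Leaving out a control library left 0, 0 and 2 genes called. DESeq2 called 27 and limma-voom 0, and the 2 groups fitted alone gave 0. The 6 genes were called under all 3 scalings (TMM, RLE and upper-quartile).

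The other genes lay between large differences that missed the threshold and small ones. Ccnb1 had 5.62 and 11.2 CPM in Eomes-TKO 4-1BB libraries against 1.46, 2.27 and 1.06 CPM in Eomes-TKO IgG libraries (2.38 ± 0.42, adjusted p = 0.0707). Cenpf had 7.03 and 20.9 CPM against 1.88, 2.27 and 1.86 CPM, the largest fold change of the 54 (2.82 ± 0.48, adjusted p = 0.0721). In both the second treated library stood far above the first. Bub1 had 1.87 and 5.94 CPM against 0.417, 0.986 and 1.06 CPM (2.30 ± 0.47, adjusted p = 0.0962). Ncapg had 5 and 8.86 CPM against 1.36, 1.48 and 1.86 CPM (2.18 ± 0.36, adjusted p = 0.0513). Kif4 had 4.22 and 8.13 CPM against 1.25, 1.68 and 1.59 CPM (2.05 ± 0.37, adjusted p = 0.0707). None of these overlapped between groups.

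Anln, a scaffold of the cleavage furrow, had 4.22 and 8.34 CPM in Eomes-TKO 4-1BB libraries against 1.36, 1.38 and 2.13 CPM in Eomes-TKO IgG libraries (2.00 ± 0.37, adjusted p = 0.0707). Aurkb had 3.28 and 5.01 CPM against 0.938, 1.28 and 0.93 CPM (1.98 ± 0.45, adjusted p = 0.174). The 2 proliferation markers were similar. Mki67 had 65.4 and 190 CPM against 31.8, 43.9 and 24.7 CPM (1.93 ± 0.50, adjusted p = 0.629). Top2a had 42.5 and 103 CPM against 22.3, 27 and 24.2 CPM (1.58 ± 0.28, adjusted p = 0.0754). Both had treated libraries above all control libraries, and for both the pair of treated libraries differed by more than the control libraries did.

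Ube2c had 3.44 and 13.5 CPM in Eomes-TKO 4-1BB libraries against 1.56, 4.44 and 0.93 CPM in Eomes-TKO IgG libraries (1.86 ± 0.62, adjusted p = 0.908). Sgo1 had 1.41 and 5.01 CPM against 1.67, 0.888 and 1.2 CPM (1.41 ± 0.47, adjusted p = 0.903). In these 2 genes the first treated library lay within the control range. Stil had 3.28 and 6.67 CPM against 1.36, 3.16 and 1.2 CPM (1.38 ± 0.43, adjusted p = 0.75). Foxm1 had 8.43 and 13.7 CPM against 3.96, 9.07 and 5.58 CPM (0.84 ± 0.33, adjusted p = 1). Cdc20 had 4.68 and 9.8 CPM against 4.07, 7 and 2.26 CPM (0.71 ± 0.42, adjusted p = 1). Foxm1 and Cdc20 overlapped between groups and Stil did not.

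The genes with the smallest values in the other roles all had log2 fold changes under 1. Incenp had 26.5 and 34.4 CPM in Eomes-TKO 4-1BB libraries against 19.5, 20.6 and 17 CPM in Eomes-TKO IgG libraries (0.68 ± 0.16, adjusted p = 0.24). Kif23 had 9.37 and 12.4 CPM against 7.09, 8.48 and 5.45 CPM (0.64 ± 0.22, adjusted p = 0.903). Both were small differences without overlap. Ect2 had 4.84 and 10.8 CPM against 5.63, 6.02 and 6.24 CPM (0.43 ± 0.32, adjusted p = 1). Smc4 had 421 and 548 CPM against 444, 424 and 315 CPM (0.30 ± 0.22, adjusted p = 1). Cenpa had 67.9 and 51.6 CPM against 64.5, 41.4 and 53.3 CPM (0.17 ± 0.25, adjusted p = 1). These 3 overlapped between groups.

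**Figure D5:**
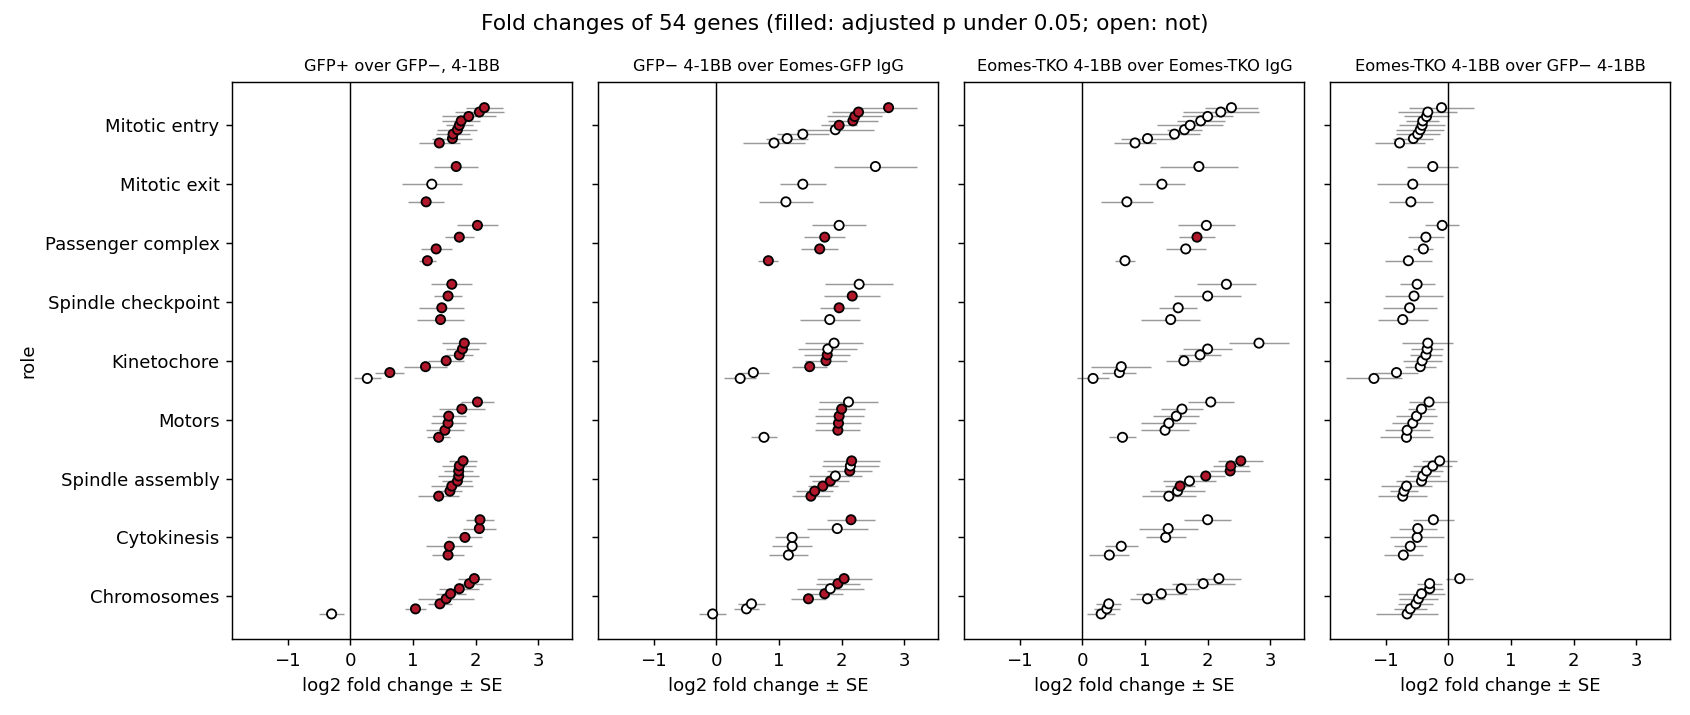
Log2 fold change ± SE (horizontal axes) of the 54 genes by role (vertical axis) in 4 comparisons, named above each panel; filled points have an adjusted p under 0.05. Filled points number 51 for GFP+ over GFP−, 28 for GFP− over Eomes-GFP IgG, 6 for Eomes-TKO 4-1BB over IgG and 0 for Eomes-TKO 4-1BB over GFP−, where 53 of 54 lie below 0.

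Treated Eomes-TKO cells held less mitotic RNA than GFP+ cells. Of the 54 genes 53 were called lower and 0 higher, against 18.8% of all genes called lower and 15.7% called higher, with a median log2 fold change of −2.13 against 0.00 for all genes. Aurkb fell by 2.68 ± 0.39 on the log2 scale (adjusted p = 9.43e-05) and Racgap1 by 2.68 ± 0.27 (adjusted p = 5.48e-06). Mki67 had 65.4 and 190 CPM in Eomes-TKO 4-1BB libraries against 727, 501 and 522 CPM in GFP+ libraries (−2.19 ± 0.53, adjusted p = 0.0116). Top2a had 42.5 and 103 CPM against 325, 365 and 265 CPM (−2.12 ± 0.29, adjusted p = 0.000165). Smc4 was the exception, with 421 and 548 CPM in Eomes-TKO 4-1BB libraries, both above the 398, 268 and 376 CPM of GFP+ libraries (0.48 ± 0.22, adjusted p = 0.114). Under upper-quartile scaling, which moved the median of all genes to 0.16, Smc4 was called higher (0.63, adjusted p = 0.0497). The calls of all genes were then 3126 higher and 2019 lower, against 2214 and 2645 with TMM. GFP+ cells are a sorted fraction and the Eomes-TKO cells are undivided, so genotype and sort cannot be told apart.

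Against GFP− cells, no difference of treated Eomes-TKO cells passed the test. With edgeR 0 of the 54 genes were called, against 0.0356% of all genes called lower and 0.00711% called higher. An unadjusted p under 0.05 was reached by 7 genes, against 6.97% of all genes, and for 16 genes both Eomes-TKO libraries lay below all GFP− libraries, against 10.8%. DESeq2 and limma-voom also called 0. The fold changes nevertheless lay on one side: 53 of 54 were negative, with a median of −0.46 against 0.00 for all genes. Aspm had 10.9 and 18.2 CPM in Eomes-TKO 4-1BB libraries against 23.8, 25.1 and 23.8 CPM in GFP− libraries, the smallest p of the list (−0.71 ± 0.22, 95% interval −1.19 to −0.24, adjusted p = 0.467). Mki67 differed by −0.66 ± 0.50 (95% interval −1.79 to 0.48, adjusted p = 0.888) and Top2a by −0.52 ± 0.28 (−1.12 to 0.09, adjusted p = 0.786). The median rested on the pair of Eomes-TKO libraries: it was −0.06 without the first, and −1.09 without the second, when Top2a was called lower.

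The difference between treated and control cells was set side by side in the 2 lines, Eomes-TKO cells over their IgG controls against GFP− cells over the Eomes-GFP IgG controls. With edgeR 0 of the 54 genes were called in this contrast. An unadjusted p under 0.05 was reached by 0, against 2.96% of all genes, and DESeq2 and limma-voom called 0. The median difference was −0.16 log2 units. It was 0.17 without the first Eomes-TKO 4-1BB library and −0.79 without the second. For Top2a the fold change was 1.58 in Eomes-TKO cells and 1.73 in GFP− cells, and for Mki67 1.93 and 1.82. GFP− cells are a sorted fraction and the other 3 groups are undivided, so genotype and sort cannot be told apart in this contrast.

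Between genotypes under control IgG, no mitotic gene passed the test. With edgeR 0 of the 54 were called, against 0.0142% of all genes called lower, and 5 had an unadjusted p under 0.05, against 3.06% of all genes. For 13 all 3 Eomes-TKO libraries lay below both Eomes-GFP libraries, against 8.62% of all genes. DESeq2 and limma-voom also called 0. The median log2 fold change was −0.26, Eomes-TKO over Eomes-GFP, and 44 were negative, but without the second Eomes-GFP library it was −0.05 with 29 negative. Spag5 had 1.36, 1.28 and 1.59 CPM in Eomes-TKO IgG libraries against 2.03 and 4.31 CPM in Eomes-GFP IgG libraries, the smallest p (−1.20 ± 0.35, adjusted p = 1). Top2a had 22.3, 27 and 24.2 CPM against 28 and 34.8 CPM (−0.36 ± 0.29, adjusted p = 1). Mki67 had 31.8, 43.9 and 24.7 CPM against 32 and 81.9 CPM (−0.77 ± 0.51, adjusted p = 1). Only for Mki67 among these 3 did the groups overlap.

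Other lists of cell cycle genes had smaller medians than the 54 genes, and the difference was not tested. Of 73 further mitotic genes, 55 were called higher in GFP+ than in GFP− cells and 0 lower, with a median log2 fold change of 1.18, and of 40 S phase genes 32 were higher and 0 lower, with a median of 0.95. Of 19 tested G1 genes 11 were higher and 4 lower, with a median of 0.38. Among all genes tested 20.7% were called higher and 16.5% lower. Single genes outside the list differed as much as its members, such as Cdk6 by 2.61 ± 0.17 and Cdkn2c by 2.11 ± 0.22 on the log2 scale. The mitotic genes with the smallest p were Cdc25b, the phosphatase that activates Cdk1 (308 ± 22.9 CPM in GFP+ against 99.2 ± 12.1 CPM in GFP−, SD, n = 3 each), Ckap5 and Kif22. In S phase they were Rpa2, a subunit that coats single-stranded DNA (72.4 ± 8.25 against 18.9 ± 1.09 CPM), the helicase subunit Mcm6 and the polymerase Pole. Among G1 genes they were Rbl2 (513 ± 34 against 169 ± 3.41 CPM), Cdk6 (448 ± 120 against 73.3 ± 5.67 CPM) and Cdkn2c (40.9 ± 9.21 against 9.5 ± 0.803 CPM). Rbl2 and Cdkn2c are known to restrain the cycle and Cdk6 to drive it.

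In Eomes-TKO cells after 4-1BB antibody none of these lists had a gene called by edgeR against IgG. The medians were 0.55 for further mitotic genes, 0.32 for S phase genes and 0.02 for G1 genes, with 26, 14 and 2 members at an unadjusted p under 0.05, which 3.6% of all genes reached. The smallest p belonged to Kif18b, Depdc1b and Parpbp, to Chaf1a, Tk1 and Clspn, and to Cdkn2c, E2f2 and Ccne2. Kif18b, a kinesin of spindle microtubules, averaged 6.23 ± 1.96 CPM in Eomes-TKO 4-1BB and 1.21 ± 0.036 CPM in Eomes-TKO IgG libraries (SD, n = 2 and 3; 2.37 ± 0.40, adjusted p = 0.058). In GFP− cells against Eomes-GFP IgG cells, 6 further mitotic genes, 2 S phase genes and 0 G1 genes were called higher, against 0.654% of all genes.

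The mean log2 CPM of the 54 genes minus that of the S phase genes was −1.06 and −0.51 in Eomes-TKO 4-1BB libraries. It was 0.18, 0.23 and 0.08 in GFP+ libraries and −0.46, −0.36 and −0.46 in GFP− libraries. Under IgG it was −1.74, −1.58 and −1.69 in Eomes-TKO cells and −1.59 and −1.27 in Eomes-GFP cells. The sign depends on which genes are in each list, and only its change between libraries can be read. It was highest in every GFP+ library and lower in every IgG library than in any treated library.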

How the data were processed

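Sorted splenic CD4+ T helper cells were profiled by total RNA sequencing after removal of ribosomal RNA, per the labels' protocols. Estimated counts per gene, which the authors deposited for the whole series, were used. The submitters' processing notes name the GRCm39 build, Salmon 1.5.2, STAR 2.7.10a, Trim Galore 0.6.7 and cutadapt 3.4 without settings. Of 47 library columns 13 matched a labelled sample by name and 34 were not used. Between 20.709% and 23.168% of nonzero values were not whole, and all values were rounded.

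Libraries held 6080975 to 10881146 counts, so that 3 counts correspond to 0.276 to 0.493 CPM. The test was edgeR 4.0.16 (R 4.3.3) quasi-likelihood with robust fitting, TMM scaling and filterByExpr on all 13 libraries in a model of 5 groups, two-sided. Benjamini-Hochberg adjustment ran over the 14059 genes that passed, and a gene was called at an adjusted p under 0.05. Adjusted p-values in the text come from this test unless another tool is named. Standard errors are |log2 fold change| over the root of the F statistic. Log2 CPM used a prior count of 2. The steps were tested on simulated data, in which genes of low CPM were left out of the changed set. For Eomes-TKO 4-1BB over IgG, 5 of 67 genes changed 1.5-fold were recovered, 59 of 67 changed 3-fold and 64 of 66 changed 5-fold. There 15 unchanged genes were also called. For GFP+ over GFP− these numbers were 15, 62 and 64, with 7 unchanged genes called. For GFP− over Eomes-GFP IgG they were 18, 57 and 64, again with 7. The simulated recovery cannot be read as the power for the listed genes in Eomes-TKO cells. Some of these had low CPM under IgG, such as Bub1 and Aurkb with means of 0.822 and 1.05 CPM in Eomes-TKO IgG libraries. In the real comparison of Eomes-TKO 4-1BB over IgG, 6 of 54 were called, at a median log2 fold change of 1.57. Alternatives were other scalings, DESeq2 1.42.0, limma-voom 3.58.1, other filters, groups fitted alone, groups fitted alone with a replicate block, and leaving out each library.

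Members and lists were chosen with earlier results of these data known. Values per library were printed for members called where at most 15 were called, for the largest and smallest fold change per role in GFP+ over GFP− and Eomes-TKO 4-1BB over IgG, for members not called in GFP+ over GFP−, and for Mki67 and Top2a. Of the other cell cycle lists the 3 genes with the smallest p were named, and any further member was chosen after its values were seen. GFP+ and GFP− libraries of the same number share a prefix in their names, read as 1 animal of 10, which pairs them; their deviations from the group means correlated at 0.32, 0.11 and 0.06. Numbers in other groups pair nothing. No libraries were identical, and replicates differed by more than counting error. Promoters are RefSeq's for GRCm38.p6, matched by symbol; their coordinates were not joined to the GRCm39 counts.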

Additional observations from a re-analysis of the deposited data

How the results depend on the processing

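The direction of the median was the same under every alternative run for GFP+ against GFP−, for GFP+ or GFP− against Eomes-GFP IgG, for Eomes-TKO 4-1BB against IgG and for Eomes-TKO 4-1BB against GFP+. How many of the 54 genes passed depended on the tool and on single libraries, and the cause was not tested. Without the filter on low counts, 1 gene was called lower in GFP+ against GFP−, 42 higher in Eomes-TKO 4-1BB against IgG, 3 lower in Eomes-TKO IgG against Eomes-GFP IgG (Cenpf, Mki67 and Cenpe) and 1 lower in GFP+ against Eomes-GFP IgG. The same setting gave 48 higher in GFP− against Eomes-GFP IgG, 1 higher in Eomes-TKO 4-1BB against GFP+ and 4 lower against GFP− (Kif11, Top2a, Mki67 and Cenpe). Outside GFP+ against GFP−, replicate numbers pair nothing, so a block by them carries no known pairing. For Eomes-TKO 4-1BB against IgG the count of 6 was 27 with DESeq2. It was 0 with limma-voom, with the groups alone and with the replicate number as a block. Leaving out a library gave 0 to 32 calls and medians of 0.83 to 1.97. For GFP− against Eomes-GFP IgG the count of 28 was 44 with DESeq2, 2 with limma-voom, 47 with the groups alone and 35 with the block, 26 of them among the 28, and 0 to 5 without a library. Upper-quartile scaling gave 1 gene, Smc4, higher in Eomes-TKO 4-1BB against GFP+. With a library left out the medians were 3.16 to 3.85 for GFP+ against Eomes-GFP IgG, −2.78 to −1.66 for Eomes-TKO 4-1BB against GFP+, −1.09 to −0.06 against GFP− with 0 to 1 genes called, and −0.79 to 0.17 for the difference between the lines. Where this left 1 library in a group, it was assumed to vary like the other groups. The block by animal in GFP+ against GFP−, fitted on those groups alone, gave 52 higher and 1 lower, and changed no call there besides those of Ube2c and Smc4. The same groups alone without the block gave 52 higher and 0 lower. The mean level taken as a median over the genes was 3.59 in GFP−, 1.5 in Eomes-TKO IgG and 1.86 in Eomes-GFP IgG cells. Genes near 1 CPM in IgG cells rest on counts near 10 per library, and the 2 libraries of each of 2 groups limit the precision.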
